A study of Mus musculus with 11 samples.

Results

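The 368 genes described here differed from control in the same direction in every yolk sac library of both Hand1 mutant genotypes, H1H2H2 and H1CKO. A gene was counted when its level in all 7 mutant libraries lay above, or in all 7 below, every one of the 4 control libraries, and when its control or mutant mean reached 5 CPM (read counts per 1000000 reads, scaled between libraries by trimmed means). Of 15061 genes listed and 14671 tested, 179 were higher and 189 lower in this sense, which is 1.58% and 1.67% of the 11334 tested genes at 5 CPM or more. All 368 passed the filter on low counts. Applied to 1 mutant genotype at a time, the same criterion took in 13.1% of those genes as higher and 7.78% as lower in H1H2H2, and 29.7% and 34% in H1CKO. The genes were thus selected on their CPM in all 11 libraries, mutant against control, so each difference from control below is a description and carries no test. The difference between the mutant genotypes was no criterion of its own, and it was tested. Where a gene reached 5 CPM through 1 mutant genotype only, the limit bears on that difference.

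The tissue was mouse yolk sac at embryonic day 9.5. The 4 H1H2H2 libraries, numbered 8 to 11, came from Hand1 H2/H2 embryos, in which Hand2 replaces Hand1 on both alleles. The 3 H1CKO libraries, 5 to 7, came from T-Cre +/-; Hand1 fx/fx embryos, with a Cre recombinase driven from the T (brachyury) locus, active in primitive streak and early mesoderm, and floxed Hand1 on both alleles by the genotype label; the descriptions of the same libraries name a knockout over a floxed allele. The 4 control libraries, 1 to 4, came from Hand1 fx/+ embryos by the label, with 1 floxed and 1 normal allele and no Cre. The descriptions of the same control libraries name them WT instead. An effect of Cre in H1CKO cannot be told apart from loss of Hand1. The labels do not say whether libraries came from separate embryos or litters, and a single yolk sac number appears in the names of both control 1 and control 2, so p-values measure the spread between these libraries, which may be technical in part.

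The yolk sac has an outer visceral endoderm, which takes up nutrients and secretes plasma proteins, and an inner extraembryonic mesoderm, which forms the blood islands, the vessels and their supporting cells. HAND1 is a basic helix-loop-helix transcription factor of that mesoderm; it pairs with E proteins and binds E-box sequences, and HAND2 is its closest relative. Mouse embryos without Hand1 are known to form a yolk sac whose vessels do not remodel.

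Libraries held 12019377 to 16824228 reads over genes. The 29 listed visceral endoderm genes, all found, summed to 49580 to 52949 CPM in H1H2H2 and 11104 to 18553 CPM in H1CKO, against 41606 to 48094 CPM in control. The 24 listed genes of heart muscle summed to 427 to 533 CPM in H1H2H2, 4909 to 12278 CPM in H1CKO and 441 to 640 CPM in control, and 23 genes of the neural tube and somites to 66.4 to 120.0 CPM, 870 to 933 CPM and 85.6 to 183 CPM in the same order. Nppa, the atrial peptide gene, had no read in any control, and Otx2, of the forebrain, none in any H1H2H2 library. No gene of these 3 lists is among the 368, and the part of other tissues in the results was not tested. The 22 genes found of trophoblast, decidua and parietal endoderm, Hand1 among them, summed to 7379 to 16446 CPM in H1H2H2. These sums were 5571 to 6213 CPM in H1CKO and 7331 to 20519.5 CPM in control. The placental marker Prl3d1 had 20.02 CPM in H1H2H2 9 and 0.2643 to 2.682 CPM in the rest of its group. Thbd, another, had 47.81 CPM there and 12 to 18.23 CPM in the rest. Control 2 was the highest library in both markers, with 85.52 CPM of Prl3d1 and 64.64 CPM of Thbd. The other controls had 2.117 to 4.333 CPM and 14.37 to 16.27 CPM in the same order. H1CKO 5 had 43.43 CPM of Prl3d1 and 13.82 CPM of Thbd, where H1CKO 6 and 7 had no Prl3d1 read and 5.956 and 6.182 CPM of Thbd. Their part in the results was not tested. In whole tissue, fewer cells of a type and less RNA per cell cannot be told apart. By Xist and Y-linked transcripts H1H2H2 held 3 male and 1 female library, H1CKO 3 male libraries, and control 1 male and 3 female. With a term for sex in the model, edgeR called 173 of the 368 in the mean of both mutant groups against control, and without it 324; the groups differ in sex, and the part of sex in the results was not tested further.

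Hand1 itself was the gene with the widest gap between mutants and controls. It lies on mm10 at chr11:57828713-57832147, minus strand, and had 15.2, 4.35, 8.59 and 9.97 CPM in the H1H2H2 libraries and 10.8, 6.18 and 5.95 CPM in the H1CKO libraries, against 58.1, 91.1, 41.9 and 31.1 CPM in the controls. H1H2H2 8 was the highest mutant library and control 4 the lowest control, and the mean of both mutant groups over control was -2.71 on the log2 scale. The mutant genotypes did not differ detectably in Hand1 (log2 difference 0.32, 95% interval -0.63 to 1.27, adjusted p = 0.541). Hand2, which was no member, had 81.03, 23.6, 35.9 and 33.7 CPM in the H1H2H2 libraries and 70.5, 72.8 and 91.8 CPM in the H1CKO libraries, against 43.5, 42.3, 47.2 and 31.7 CPM in the controls; H1H2H2 8 lay within the range of the H1CKO libraries, H1H2H2 10 and 11 within that of the controls, and H1H2H2 9 below the lowest control.

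Most shared differences were small. Among the 179 higher genes the log2 fold change of the mean of both mutant groups over control had a median of 0.34 and ran from 0.12 to 2.29; 28 genes reached 1.5-fold and 8 reached 2-fold. Among the 189 lower genes the median was -0.50, from -2.71 to -0.09, with 78 genes at 1.5-fold and 38 at 2-fold. By genotype, the median for higher genes was 0.31 in H1H2H2 and 0.33 in H1CKO, and for lower genes -0.40 and -0.53. In edgeR's quasi-likelihood test of that mean against control, 154 of the 179 were called higher and 170 of the 189 lower at an adjusted p under 0.05, where 9.02% and 12.4% of all tested genes were called; the criterion used these levels, so the counts describe it. H1H2H2 against control alone called 110 of the higher and 112 of the lower genes (9.49% and 7.16% of all genes), and H1CKO against control 130 and 152 (27% and 25.6%, 52.6% in all). Both comparisons share the controls, and 79 higher and 88 lower genes were called in each of them, where 0.777% and 0.927% of all genes were. In the authors' deposited table, 157 of the 368 passed in both comparisons in the same direction, where 2% of all tested genes did.

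Which library set the edge was uneven. H1H2H2 8 was the mutant library nearest to the controls in 77 of the 179 higher and 85 of the 189 lower genes. Control 1 was the control nearest to the mutants in 65 higher genes, and control 2 in 67 lower ones. Without H1H2H2 8, 342 genes would be counted as higher and 613 as lower. Scaled by total counts only, 187 would be higher and 189 lower, of which 121 and 138 are among the 368. H1H2H2 9 stood at the other end, with the highest level of its group in 94 of the higher genes and the lowest in 97 of the lower ones. The values near the limit of 5 CPM were Frat2, Dpep1 and Nefm just inside on the higher side, with mutant means of 5.23, 5.70 and 5.75 CPM, and Vwa1 and Apobec2 just outside at 4.84 and 4.53 CPM. On the lower side, control means of 5.01, 5.05 and 5.05 CPM put Fam124a, C1ql1 and Osbp2 inside, and 4.88, 4.86 and 4.78 CPM left Entpd3, Parp12 and Kcnj15 outside. Another 26 higher and 52 lower genes separated all libraries but did not reach 5 CPM.

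**Figure D1:**
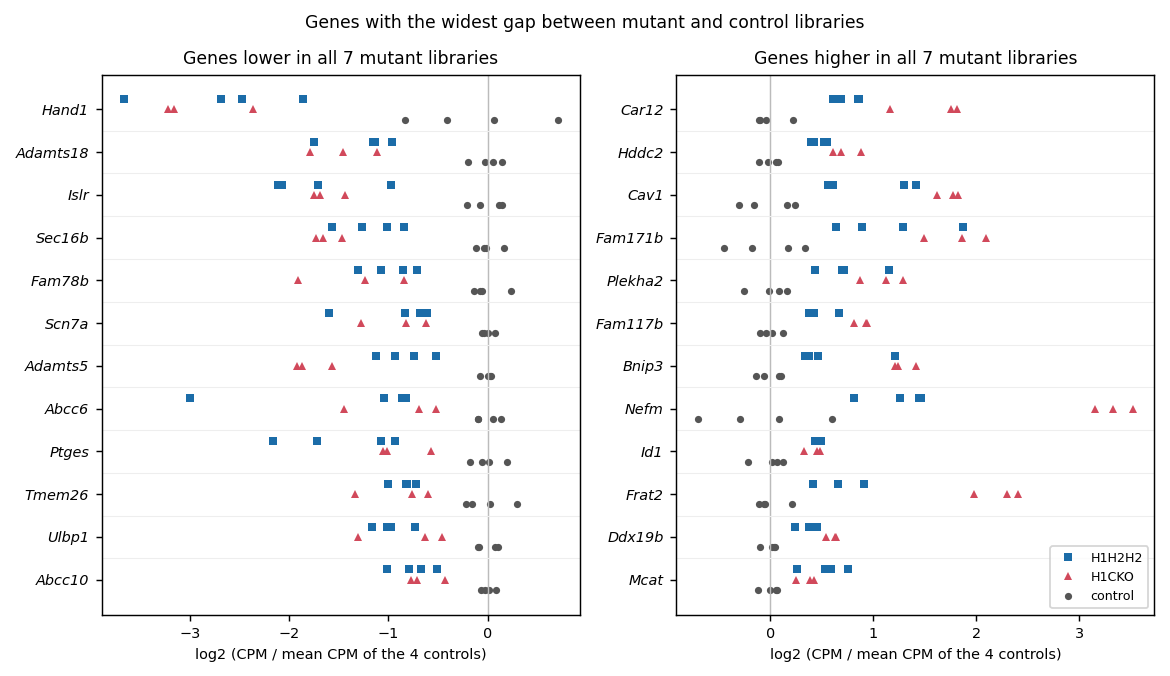
Level of each library over the control mean (log2 CPM ratio, horizontal axis) for the 12 higher and 12 lower genes with the widest gap between mutant and control libraries; squares are H1H2H2, triangles H1CKO and circles control libraries. All mutant points of a gene lie on one side of its control points, farthest for Hand1, and for Nefm and Frat2 the H1CKO points lie well beyond the H1H2H2 points.

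Among the higher genes, the widest gap was at Car12 (chr9:66713686-66766845, plus strand), a membrane-bound carbonic anhydrase that handles carbon dioxide and pH. Car12 had 8.75, 9.201, 10.4 and 10.4 CPM in the H1H2H2 libraries and 12.8, 20.2 and 19.3 CPM in the H1CKO libraries, against 5.33, 5.36, 5.58 and 6.68 CPM in the controls. The lowest mutant library was H1H2H2 8 and the highest control was control 4, and the mutant groups did not overlap with each other either. Cav1, the coat protein of caveolae in endothelium and smooth muscle, had 5.15, 5.35, 9.32 and 8.597 CPM in the H1H2H2 libraries and 10.8, 11.99 and 12.4 CPM in the H1CKO libraries, against 2.84, 4.12, 3.13 and 3.904 CPM in the controls. H1H2H2 8 and 9 stood nearest to the controls. Plekha2, an adaptor that binds membrane phosphoinositides, had 38.6, 63.9, 46.4 and 47.2 CPM in the H1H2H2 libraries and 69.9, 52.3 and 62.4 CPM in the H1CKO libraries, against 31.97, 28.3, 30.4 and 23.95 CPM in the controls; 22.3% of its exon bases overlap other gene models. The mutant groups overlapped in Plekha2 and H1H2H2 8 was the lowest of them.

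Fam117b, Hddc2, Fam171b, Ddx19b, an RNA helicase of mRNA export, and Mcat, the malonyl transferase of mitochondrial fatty acid synthesis, were the other genes of wide gap without a list. Fam117b had 47.4, 58.1, 49.2 and 48.5 CPM in H1H2H2, 64.4, 70.3 and 69.5 CPM in H1CKO and 39.9, 35.4, 37.01 and 34.1 CPM in control. Mcat had 13.1, 18.3, 15.7 and 16.4 CPM in H1H2H2, 12.96, 14.3 and 14.7 CPM in H1CKO and 11.4, 10.9, 10.1 and 11.4 CPM in control. Mcat was highest in H1H2H2 9 and Fam117b in the 3 H1CKO libraries. Nefm, a neurofilament protein of neurons, and Frat2, an inhibitor of GSK3 in Wnt signalling, were far higher in H1CKO than in H1H2H2. Nefm had 1.76, 2.74, 2.77 and 2.41 CPM in the H1H2H2 libraries and 8.95, 11.5 and 10.1 CPM in the H1CKO libraries, against 1.07, 0.618, 0.819 and 1.52 CPM in the controls, beside the neural transcripts of the H1CKO libraries given above, whose part in it was not tested; it has a near-identical copy in the annotation. Frat2 had 2.82, 3.36, 2.38 and 2.82 CPM in the H1H2H2 libraries and 9.42, 7.02 and 8.78 CPM in the H1CKO libraries, against 2.06, 1.65, 1.71 and 1.72 CPM in the controls. In both genes the H1H2H2 libraries lay narrowly above the controls.

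Glycolysis and hypoxia genes gave the largest group of higher genes among the 31 gene lists. Cells short of oxygen stabilise HIF1A, which raises the enzymes that turn glucose to lactate, the kinases that keep pyruvate from mitochondria, and VEGFA. Of 33 listed genes, all tested, 8 were higher in all 7 mutant libraries and none was lower: the enzymes Pfkp, Tpi1, Pgk1 and Ldha, the regulators Pfkfb3 and Pdk1, Bnip3 and Vegfa. In the mean of both mutant groups against control, edgeR called 24 of the 33 higher, where 9.02% of all tested genes were. The median log2 fold change of the list was 0.35 in H1H2H2 and 1.19 in H1CKO, against -0.01 and 0.03 over all tested genes. In H1H2H2, 10 of the 33 were called higher and 1 lower, where 9.49% and 7.16% of all genes were. In H1CKO, 29 were called higher and 1 lower, where 27% and 25.6% were. The H1H2H2 count of genes called higher was 1 with a term for sex. It was 3 to 5 without any 1 of the control libraries or without H1H2H2 9, 10 or 11.

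The enzymes of the lower part of the pathway were at the highest levels. Ldha, which makes lactate, had 803, 1295, 976 and 915 CPM in the H1H2H2 libraries and 1105, 1111 and 1167 CPM in the H1CKO libraries, against 741, 609, 759.9 and 712 CPM in the controls. Pgk1, which makes ATP from bisphosphoglycerate, had 109, 254, 183 and 161 CPM in the H1H2H2 libraries and 228, 237 and 246 CPM in the H1CKO libraries, against 101.2, 86.4, 104 and 100.7 CPM in the controls. Tpi1, the triose phosphate isomerase, had 577, 702, 529.8 and 535 CPM in the H1H2H2 libraries and 628, 637 and 756 CPM in the H1CKO libraries, against 506, 436, 485 and 504 CPM in the controls. In all 3 genes H1H2H2 9 was among the highest libraries, the mutant groups overlapped, and the lowest mutant library stood close to the highest control. Ldha, Pgk1 and Tpi1 have near-identical copies in the annotation, so reads may have been split between copies.

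The phosphofructokinase step differed more between the genotypes. Pfkp, the platelet form of the enzyme, had 58.1, 62.7, 55.4 and 50.1 CPM in the H1H2H2 libraries and 89.8, 92.7 and 105 CPM in the H1CKO libraries, against 43.6, 49.04, 42.9 and 46.5 CPM in the controls. Pfkfb3, which makes the activator of phosphofructokinase, had 23.1, 45.9, 39.2 and 40.03 CPM in the H1H2H2 libraries and 63.5, 99.8 and 127 CPM in the H1CKO libraries, against 21.8, 12.8, 20.5 and 15.5 CPM in the controls. In both genes every H1H2H2 library lay between the controls and the H1CKO libraries. Pdk1, the kinase that blocks pyruvate dehydrogenase, had 81.2, 118, 86.2 and 81.1 CPM in the H1H2H2 libraries and 163, 177 and 186 CPM in the H1CKO libraries, against 71.3, 62.4, 59.8 and 64.1 CPM in the controls. Vegfa, the growth factor that drives vessel formation, had 93.4, 92.8, 94.3 and 95.9 CPM in the H1H2H2 libraries and 172, 170.4 and 226 CPM in the H1CKO libraries, against 86.9, 74.3, 90.9 and 85.1 CPM in the controls. The H1H2H2 libraries of Vegfa had an SD of 1.39 CPM and lay just above the highest control, while the H1CKO libraries stood far above both.

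Bnip3, a mitochondrial protein of mitophagy that hypoxia induces, had 84.8, 152, 82.8 and 90.5 CPM in the H1H2H2 libraries and 151, 155 and 175 CPM in the H1CKO libraries, against 69.5, 59.8, 70.5 and 62.7 CPM in the controls. H1H2H2 9 stood with the H1CKO libraries and the other 3 H1H2H2 libraries just above the controls; 28.7% of its exon bases overlap another gene model, and it has near-identical copies. Over the 8 genes, H1H2H2 9 was the highest of its group in 7. Hif1a itself was among the lower genes, with 288, 265, 258 and 273 CPM in the H1H2H2 libraries and 235, 214 and 172 CPM in the H1CKO libraries, against 293, 313, 305 and 299.5 CPM in the controls. The oxidoreductase Ero1l, another gene that hypoxia induces, was higher, with 89.2, 158, 121 and 117 CPM in H1H2H2, 105, 111 and 108 CPM in H1CKO and 82.3, 80.5, 84.3 and 85.7 CPM in control; Hif1a and Ero1l were picked after their values were seen.

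**Figure D2:**
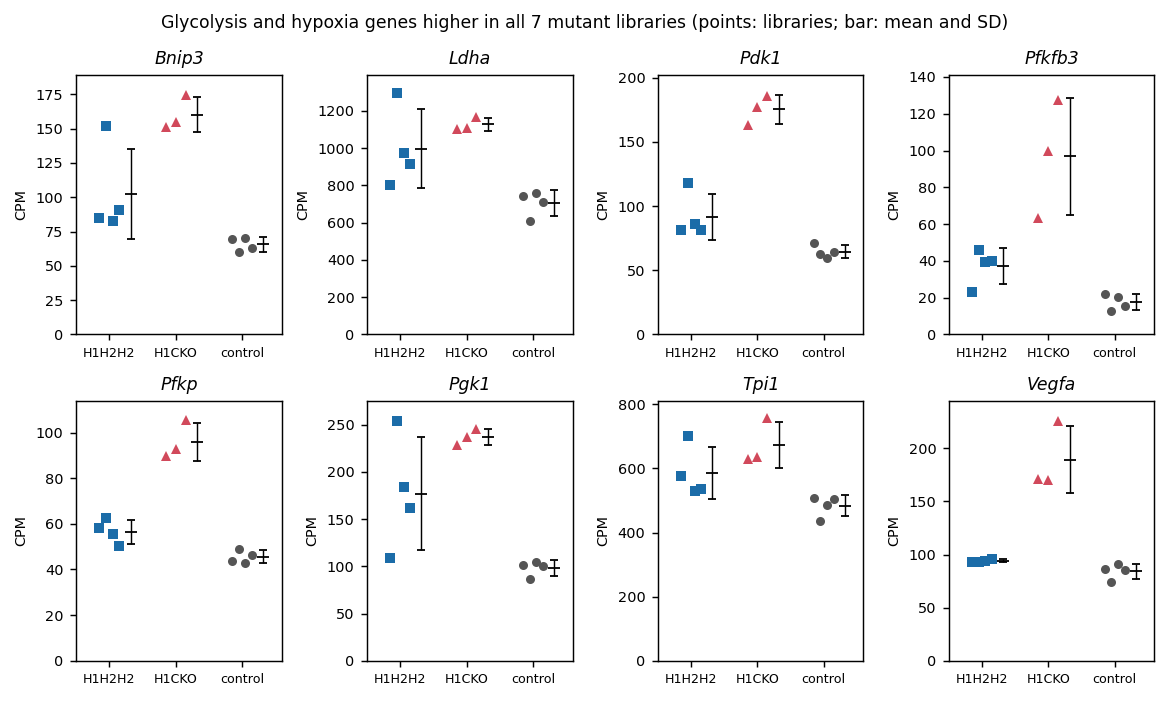
CPM of the 8 glycolysis and hypoxia genes that were higher in all 7 mutant libraries (vertical axis, from 0); points are libraries and bars the mean and SD of each group. Vegfa, Pfkp and Pdk1 show the H1H2H2 group between control and H1CKO, while Ldha, Pgk1 and Tpi1 show H1H2H2 9 at or above the level of the H1CKO libraries.

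The promoters of 3 of these genes are shown because hypoxia factors bind a short core, ACGTG or GCGTG. Each is the RefSeq window of 300 bases on GRCm38.p6, from 250 bases before to 50 bases after the start, printed 5′ to 3′ on the strand of the gene, with the core in capitals wherever it reads on either strand. The Bnip3 window (chr7:138909457-138909756, minus strand) has 5 matches, that of Pdk1 (chr2:71872974-71873273, plus strand) 2 and that of Ldha (chr7:46845554-46845853, plus strand) 7, where a palindrome counts on each strand.
Bnip3: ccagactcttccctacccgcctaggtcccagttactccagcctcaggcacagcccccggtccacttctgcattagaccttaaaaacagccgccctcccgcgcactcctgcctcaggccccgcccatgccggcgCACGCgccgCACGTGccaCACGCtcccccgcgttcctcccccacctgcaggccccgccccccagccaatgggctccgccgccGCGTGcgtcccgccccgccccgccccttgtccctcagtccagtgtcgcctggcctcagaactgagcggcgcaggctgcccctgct
Pdk1: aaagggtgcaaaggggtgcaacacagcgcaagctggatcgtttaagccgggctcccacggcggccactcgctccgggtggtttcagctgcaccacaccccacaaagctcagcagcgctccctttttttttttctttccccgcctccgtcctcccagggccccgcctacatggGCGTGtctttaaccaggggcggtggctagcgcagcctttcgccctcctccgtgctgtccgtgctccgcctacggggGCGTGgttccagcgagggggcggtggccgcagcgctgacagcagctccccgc
Ldha: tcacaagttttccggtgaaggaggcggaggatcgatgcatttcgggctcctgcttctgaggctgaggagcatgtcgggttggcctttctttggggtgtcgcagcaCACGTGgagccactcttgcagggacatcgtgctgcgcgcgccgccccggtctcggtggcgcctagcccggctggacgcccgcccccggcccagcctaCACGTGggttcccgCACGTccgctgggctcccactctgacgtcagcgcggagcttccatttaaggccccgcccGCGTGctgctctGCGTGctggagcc
The core was searched after the values were seen. It is in 6 of the 8 windows of the group (75.0%), 64.1% of the 145 windows found for higher genes, 65.1% of the 146 for lower genes, 62% of 11485 for all tested genes and 43.8% of all 32851 windows of the table. The share among the 368 is near that of all tested genes.

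Signalling genes among the higher ones were few. Of 33 tested angiogenic ligands 3 were higher and none lower: Vegfa, Apln and Cyr61. Apln, the ligand of the apelin receptor of endothelium, had 20.6, 17.5, 15.2 and 10.7 CPM in the H1H2H2 libraries and 17.1, 10.3 and 9.24 CPM in the H1CKO libraries, against 8.24, 7.42, 6.701 and 6.15 CPM in the controls. H1H2H2 8 was the highest library, and H1CKO 7 the lowest of the mutants. Cyr61, a matricellular protein also known as CCN1, had 33.3, 33.8, 52.9 and 30.7 CPM in the H1H2H2 libraries and 63.1, 60.8 and 37.5 CPM in the H1CKO libraries, against 20.1, 27.1, 28.7 and 29.4 CPM in the controls. H1H2H2 10 lay between H1CKO 7 and the other H1CKO libraries, and the H1H2H2 library lowest in Cyr61 lay close above the highest control. EdgeR called in H1H2H2 against control 1 of the 33 as higher and 5 as lower, where 9.49% and 7.16% of all genes were. In H1CKO against control it called 20 higher and 1 lower, where 27% and 25.6% were. The median log2 fold change of the list was -0.41 in H1H2H2 and 0.86 in H1CKO, in opposite directions.

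Id factors are helix-loop-helix proteins without a DNA-binding part that take E proteins out of action, and BMP signals raise them. Id1 and Id3 were higher in all mutants, 2 of the 42 tested BMP and TGF-beta genes. Id1 had 55.4, 55.2, 56.1 and 57.6 CPM in the H1H2H2 libraries and 57.1, 55.9 and 51.2 CPM in the H1CKO libraries, against 44.6, 35.03, 41.2 and 42.6 CPM in the controls. Its 7 mutant libraries covered a narrow range and did not separate by genotype. Id3 had 32.7, 42.7, 44.2 and 40.7 CPM in the H1H2H2 libraries and 60.9, 59.5 and 60.3 CPM in the H1CKO libraries, against 31.5, 21.5, 32.3 and 27.9 CPM in the controls. In Id3 the H1CKO libraries stood above all H1H2H2 libraries, and H1H2H2 8 close above the highest control.

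Several other lists gave 1 higher gene each. Spry2, a feedback inhibitor of FGF signalling, had 11.4, 12.3, 8.59 and 8.597 CPM in H1H2H2, 26.1, 21.5 and 21.8 CPM in H1CKO and 7.67, 8.11, 8.56 and 5.23 CPM in control. Dkk3, a secreted relative of the Wnt inhibitors, had 22.2, 16.6, 18.4 and 20.01 CPM in H1H2H2, 22.7, 18.7 and 18.2 CPM in H1CKO and 13.99, 15.8, 15.2 and 13.4 CPM in control. Tpm4, a tropomyosin of the actin cytoskeleton, had 343, 330.1, 331 and 291 CPM in H1H2H2, 352, 384 and 328 CPM in H1CKO and 272, 288, 266 and 266 CPM in control. The H1H2H2 libraries of Spry2 lay nearest to the controls, and the mutant groups overlapped in Dkk3 and Tpm4. Atf3, a stress-induced transcription factor, had 13.1, 18.9, 16.6 and 13.1 CPM in H1H2H2, 11.9, 11.6 and 9.39 CPM in H1CKO and 9.23, 6.66, 8.71 and 8.999 CPM in control. Aurkb, a mitotic kinase, had 56.5, 65.96, 56.8 and 60.4 CPM in H1H2H2, 57.7, 58.8 and 58.8 CPM in H1CKO and 54.1, 47.5, 50.8 and 50.5 CPM in control. Atf3 was highest in H1H2H2 9 and 10, and Aurkb in H1H2H2 9.

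Ribosomal protein genes made up another group among the higher ones, named here after the values were seen. Of 82 tested cytosolic ribosomal protein genes 11 were higher in all mutants and none lower, among them Rpl10, Rpl15, Rpl18, Rpl38, Rps14, Rps18, Rps20, Rps21 and Fau. Rps18 had 235, 449.9, 361 and 353 CPM in H1H2H2, 246, 225 and 215 CPM in H1CKO and 179, 190.1, 185 and 188 CPM in control. Rpl38 had 132, 181, 153 and 159 CPM in H1H2H2, 135, 147 and 149 CPM in H1CKO and 122, 119, 121 and 122 CPM in control. In all 11 genes H1H2H2 9 was the highest and H1H2H2 8 the lowest library of its group. H1H2H2 against control called 29 of the 82 higher and 5 lower, where 9.49% and 7.16% of all genes were called so. H1CKO against control called 6 higher and 3 lower, where 27% and 25.6% of all genes were. The H1H2H2 count of genes called higher was 41 without H1H2H2 8, and 10 with a term for sex. It was 7 to 12 without control 1, 2 or 3 or H1H2H2 9, 10 or 11. Most of these genes, Rps18 among them, have near-identical copies in the annotation, and Rpl38 and Rps21 have none. H1H2H2 9 also had the largest share of globin reads of all libraries, 1.37% where the other libraries had 0.227% to 1.08%, and whether these move together was not tested. The same library was highest of its group in the placental markers Prl3d1 and Thbd given above. Their part in the ribosomal and glycolysis counts was not tested. Of 42 tested genes for splicing proteins (small nuclear and heterogeneous nuclear ribonucleoproteins and SR proteins), Hnrnpa0, Hnrnpl, Snrpb and Srsf9 were higher. This set was picked after the values were seen. H1H2H2 against control called 6 of the 42 higher and 9 lower, where 9.49% and 7.16% of all genes were. H1CKO against control called 11 higher and 1 lower, where 27% and 25.6% were. The median log2 fold change of the 42 was -0.08 in H1H2H2 and 0.19 in H1CKO. Snrpb had 111, 182, 169 and 157 CPM in H1H2H2, 122, 121 and 125 CPM in H1CKO and 104, 100.9, 109.8 and 106 CPM in control, lowest of the mutants in H1H2H2 8.

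Genes of the extracellular matrix and of its proteases formed a group among the lower genes. The matrix of the yolk sac mesoderm is made of collagens and proteoglycans, and ADAMTS proteases cut the large proteoglycans. Of 49 tested matrix genes 4 were lower in all 7 mutant libraries (Col6a3, Dcn, Fmod and Thbs2) and none higher. In the mean of both mutant groups against control edgeR called 15 of the 49 lower and 1 higher, where 12.4% and 9.02% of all genes were. H1H2H2 against control called 8 lower and none higher, where 7.16% and 9.49% of all genes were. H1CKO against control called 19 lower and 8 higher, where 25.6% and 27% were. The median log2 fold change of the list was -0.32 in H1H2H2 and -0.55 in H1CKO. The H1H2H2 count was 25 without H1H2H2 8, 2 without H1H2H2 11, 4 or 5 without control 1, 2 or 3 or H1H2H2 9 or 10, and 4 with a term for sex.

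Col6a3, a chain of the microfibrillar collagen VI, had 51.2, 18.3, 36.6 and 33.8 CPM in the H1H2H2 libraries and 10.6, 11.6 and 13.3 CPM in the H1CKO libraries, against 80.98, 81.3, 65.4 and 59.4 CPM in the controls. Dcn, the small proteoglycan decorin, had 42.6, 20.02, 23.6 and 29.6 CPM in the H1H2H2 libraries and 10.6, 13.7 and 14.3 CPM in the H1CKO libraries, against 55.1, 57.01, 53.01 and 50.6 CPM in the controls. Thbs2, a thrombospondin that restrains vessel growth, had 9.53, 5.04, 5.81 and 4.88 CPM in the H1H2H2 libraries and 2.28, 2.98 and 4.05 CPM in the H1CKO libraries, against 14.2, 15.6, 12.7 and 11.4 CPM in the controls. In these genes every H1H2H2 library lay between control and H1CKO, with H1H2H2 8 nearest to the controls. Fmod, the proteoglycan fibromodulin, had 3.81, 1.31, 1.85 and 1.44 CPM in the H1H2H2 libraries and 0.864, 1.99 and 1.91 CPM in the H1CKO libraries, against 5.75, 5.63, 6.11 and 3.97 CPM in the controls, with H1H2H2 8 close under control 4.

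Of 19 tested ADAMTS genes, a family picked after its values were seen, Adamts5, Adamts17 and Adamts18 were lower and none higher. Adamts18 (chr8:113698137-113848839, minus strand), a protease known from organ branching and eye development, had 17.4, 10.1, 15.5 and 15.3 CPM in the H1H2H2 libraries and 9.82, 12.4 and 15.6 CPM in the H1CKO libraries, against 37.6, 35.2, 33.4 and 29.5 CPM in the controls. Its mutant groups overlapped, and the highest mutant library held well under the lowest control. Adamts5, the main aggrecan and versican protease, had 12.5, 8.21, 9.38 and 10.7 CPM in the H1H2H2 libraries and 6.05, 4.89 and 4.73 CPM in the H1CKO libraries, against 18.3, 18.4, 18.02 and 17.1 CPM in the controls. Here all H1H2H2 libraries lay between the controls and the H1CKO libraries. Islr, the leucine-rich mesenchymal protein meflin, had 7.41, 3.36, 4.43 and 3.44 CPM in the H1H2H2 libraries and 4.32, 4.505 and 5.34 CPM in the H1CKO libraries, against 13.8, 16.1, 15.7 and 12.6 CPM in the controls. The mutant groups of Islr overlapped, with H1H2H2 8 nearest to the controls. Loxl4, a lysyl oxidase that crosslinks collagen, had 5.51, 2.61, 5.62 and 3.23 CPM in H1H2H2, 1.41, 0.916 and 1.07 CPM in H1CKO and 7.89, 9.82, 6.92 and 6.95 CPM in control; it was picked after its values were seen.

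**Figure D3:**
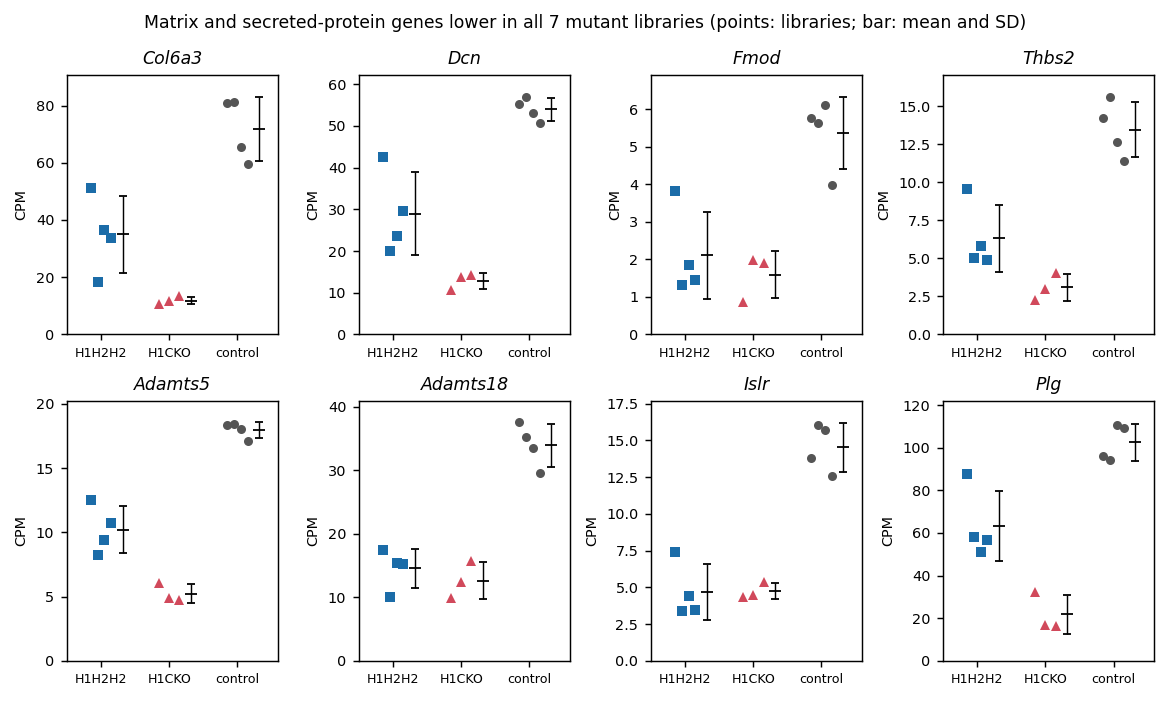
CPM of 8 lower genes in each library (vertical axis, from 0; points are libraries, bars the mean and SD of each group): the matrix genes Col6a3, Dcn, Fmod and Thbs2, the proteases Adamts5 and Adamts18, Islr and the plasma protein gene Plg. Control libraries lie above all mutant libraries in each panel, and in Col6a3, Dcn, Thbs2, Adamts5 and Plg the H1CKO libraries lie under the H1H2H2 libraries.

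Fmod and Scn7a are shown with their promoter because CATCTG is an E-box of the kind that helix-loop-helix factors bind. Scn7a, a sodium channel protein that senses salt, had 5.65, 2.98, 5.09 and 5.91 CPM in the H1H2H2 libraries and 5.89, 5.12 and 3.74 CPM in the H1CKO libraries, against 9.09, 8.86, 9.53 and 8.73 CPM in the controls. The mutant groups overlapped, and the controls covered 8.73 to 9.53 CPM. The windows of Fmod (chr1:134037004-134037303, plus strand) and Scn7a (chr2:66784861-66785160, minus strand), from RefSeq on GRCm38.p6 and printed like those above, hold 1 match each, in capitals.
Fmod: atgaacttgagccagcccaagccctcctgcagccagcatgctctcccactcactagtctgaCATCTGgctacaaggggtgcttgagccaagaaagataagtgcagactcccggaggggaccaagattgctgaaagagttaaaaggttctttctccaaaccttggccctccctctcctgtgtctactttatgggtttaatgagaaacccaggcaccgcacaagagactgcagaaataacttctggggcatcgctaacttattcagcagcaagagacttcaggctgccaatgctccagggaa
Scn7a: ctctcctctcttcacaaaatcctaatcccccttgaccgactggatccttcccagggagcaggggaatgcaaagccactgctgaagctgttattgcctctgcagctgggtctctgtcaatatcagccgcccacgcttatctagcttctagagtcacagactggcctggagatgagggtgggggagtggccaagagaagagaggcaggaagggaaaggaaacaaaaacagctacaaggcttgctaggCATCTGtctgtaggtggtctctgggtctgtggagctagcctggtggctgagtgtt
CATCTG, read on either strand, is in 13.7% of the windows of lower genes and 8.28% of those of higher genes, against 11.3% for all tested genes. The other E-box searched, CAGCTG, is in 19.2% and 14.5% of them, against 15.1%. CGTCTG, a sequence that HAND1 with E proteins selects, is in 10.3% and 11.0%, against 10.8%. The GATA core AGATAA is in 6.85% and 4.14%, against 6.43%, and the GC box GGGCGG in 67.1% and 75.2%, against 64.2%. These are shares of letters in windows of 300 bases, not of bound sites.

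Plasma proteins made by visceral endoderm were next among the lower genes. Of 29 tested genes for plasma proteins, complement and coagulation, Plg, F5 and Itih2 were lower in all mutants and none higher. Plg, the precursor of plasmin, had 87.7, 58.1, 51.2 and 56.6 CPM in the H1H2H2 libraries and 32.4, 16.9 and 16.3 CPM in the H1CKO libraries, against 96.1, 94.1, 111 and 109 CPM in the controls. F5, coagulation factor V, had 16.7, 14.1, 20.1 and 18.5 CPM in the H1H2H2 libraries and 13.8, 14.1 and 19.2 CPM in the H1CKO libraries, against 27.3, 21.9, 29.6 and 25.3 CPM in the controls. Itih2, an inter-alpha-trypsin inhibitor chain that binds hyaluronan, had 22.2, 14.4, 10.6 and 13.8 CPM in the H1H2H2 libraries and 13.2, 8.78 and 14.1 CPM in the H1CKO libraries, against 42.3, 22.8, 23.2 and 28.8 CPM in the controls. For Plg the H1H2H2 libraries lay between control and H1CKO, and for F5 and Itih2 the mutant groups overlapped. This list stands beside visceral endoderm markers that were low in H1CKO and not in H1H2H2. In H1H2H2, 4 of the 29 plasma protein genes were called lower and 1 higher, where 7.16% and 9.49% of all genes were. In H1CKO, 23 were called lower and 2 higher, where 25.6% and 27% were. The part of fewer endoderm transcripts in H1CKO was not tested. The H1H2H2 count of genes called lower was 9 without H1H2H2 8, and 1 with a term for sex. It was 1 or 2 without control 1 or 3 or H1H2H2 9, 10 or 11.

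Of 29 tested drug, steroid and retinoid enzymes Fmo1 and Tdo2 were lower and Gsta4, a glutathione transferase, higher, and H1H2H2 against control called 3 lower and 3 higher and H1CKO against control 17 lower and 7 higher, where 7.16% and 9.49% of all genes were called so in H1H2H2 and 25.6% and 27% in H1CKO. Fmo1, a flavin monooxygenase, had 297, 178, 197 and 158 CPM in the H1H2H2 libraries and 134, 112 and 140.2 CPM in the H1CKO libraries, against 388, 334, 347 and 407 CPM in the controls; it has a near-identical copy. Tdo2, which opens the ring of tryptophan, had 14.05, 15.7, 14.7 and 16.4 CPM in the H1H2H2 libraries and 6.44, 0.764 and 0.763 CPM in the H1CKO libraries, against 25.6, 31.2, 20.7 and 22.8 CPM in the controls. H1CKO 6 and 7 had almost none, while the H1H2H2 libraries stood close together under the controls. Sc5d, an enzyme near the end of cholesterol synthesis, had 42.6, 42.6, 40.6 and 44.98 CPM in H1H2H2, 46.4, 47.6 and 37.2 CPM in H1CKO and 58.9, 48.7, 78.7 and 69.1 CPM in control, without a difference in order between the mutant groups. Of the 24 tested cholesterol synthesis genes Sc5d was the 1 lower in all 7 mutant libraries. H1H2H2 against control called 19 of the 24 lower and 0 higher, where 7.16% and 9.49% of all genes were. H1CKO against control called 5 lower and 3 higher, where 25.6% and 27% were.

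Abca1, which loads cholesterol on apolipoprotein A1, had 130.4, 111, 113 and 132 CPM in H1H2H2, 66.8, 51.5 and 50.8 CPM in H1CKO and 147, 142, 141 and 144 CPM in control. Abcc6 and Abcc10, exporters of the ABCC family, picked as genes of wide gap, had 8.47, 7.46, 1.92 and 8.67 CPM in H1H2H2, 9.503, 5.65 and 10.7 CPM in H1CKO and 14.3, 14.4, 15.9 and 16.9 CPM in control and 25.2, 17.8, 22.6 and 20.8 CPM in H1H2H2, 21.05, 21.99 and 26.7 CPM in H1CKO and 35.4, 34.3, 36.3 and 38.1 CPM in control. H1H2H2 10 was lowest in Abcc6, and H1CKO libraries were lowest in Abca1. Ptges, the prostaglandin E synthase, had 7.13, 3.05, 6.47 and 4.13 CPM in the H1H2H2 libraries and 6.75, 6.57 and 9.16 CPM in the H1CKO libraries, against 13.8, 15.7, 13.1 and 12.04 CPM in the controls. In Ptges the mutant groups overlapped. Of 21 tested genes for prostaglandins and leukotrienes, a set picked after the values were seen, Ptges, Ptgfrn, Hpgd and Cysltr1 were lower and Lta4h higher. H1H2H2 against control called 3 of the 21 lower and 2 higher, where 7.16% and 9.49% of all genes were. H1CKO against control called 14 lower and 1 higher, where 25.6% and 27% were. The median log2 fold change of the 21 was 0.03 in H1H2H2 and -0.81 in H1CKO.

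Sec16b, which organises the sites where cargo leaves the endoplasmic reticulum, had 14.8, 11.004, 8.92 and 13.1 CPM in the H1H2H2 libraries and 9.58, 8.02 and 8.396 CPM in the H1CKO libraries, against 26.2, 24.5, 25.9 and 29.7 CPM in the controls. All mutant libraries held well under the lowest control. Ulbp1, a stress ligand of the NKG2D receptor, Tmem26 and Fam78b were the other lower genes of wide gap. Ulbp1 had 7.06, 5.22, 5.95 and 5.78 CPM in H1H2H2, 4.71, 7.56 and 8.47 CPM in H1CKO and 12.6, 10.99, 12.3 and 10.9 CPM in control. Fam78b had 9.81, 10.8, 7.201 and 8.46 CPM in H1H2H2, 9.895, 4.73 and 7.56 CPM in H1CKO and 20.96, 17.1, 16.9 and 16.1 CPM in control. In both genes the mutant groups overlapped. H2-D1, a class I histocompatibility gene, was the 1 lower gene of 22 tested genes of inflammation and interferon, with 2.68, 3.98, 2.58 and 2.48 CPM in the H1H2H2 libraries and 1.96, 4.28 and 4.27 CPM in the H1CKO libraries, against 5.75, 10.5, 5.21 and 7.01 CPM in the controls; it has a near-identical copy, and control 2 stood above the other controls. Gbp7 and Gbp9, of the interferon-induced guanylate-binding proteins, were lower too, 2 of 8 tested, a family picked after its values were seen.

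Besides Hand1, several other transcription factors were among the lower genes. Hoxc8, a homeobox gene of the trunk, had 28.5, 9.08, 15.9 and 13.5 CPM in the H1H2H2 libraries and 2.75, 16.1 and 18.4 CPM in the H1CKO libraries, against 35.2, 37.6, 32.2 and 31.6 CPM in the controls. H1CKO 5 was the lowest library and H1H2H2 8 the mutant nearest to the controls. Of 32 tested Hox genes, Hoxc8 was the 1 counted. H1CKO against control called 18 of the 32 higher and 1 lower, where 27% and 25.6% of all genes were. H1H2H2 against control called 0 higher and 1 lower, where 9.49% and 7.16% were. Klf10, a zinc finger factor induced by TGF-beta, had 61.98, 58.4, 67.1 and 66.4 CPM in H1H2H2, 38.01, 29.9 and 31.1 CPM in H1CKO and 73.9, 68.8, 73.3 and 75.8 CPM in control. Nkx2-3, Nr1h4, Ahr, E2f4 and E2f8 were lower and E2f3 higher, all picked after their values were seen. Nr1h4, the bile acid receptor, had 9.53, 8.14, 7.27 and 8.46 CPM in H1H2H2, 3.14, 0.8399 and 2.06 CPM in H1CKO and 12.1, 11.6, 11.1 and 14.8 CPM in control. Birc5, the mitotic protein survivin, had 153, 141, 136 and 149 CPM in H1H2H2, 109, 103 and 98.996 CPM in H1CKO and 159, 155, 167 and 169.9 CPM in control. In Klf10, Nr1h4 and Birc5 the H1H2H2 libraries all lay between control and H1CKO.

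Of mitochondrial ribosomal protein genes, 5 were lower (Mrpl32, Mrpl41, Mrpl42, Mrps2 and Mrps18a) and 1 was higher (Mrpl52) of 77 tested. H1H2H2 against control called 8 of the 77 lower and 10 higher, where 7.16% and 9.49% of all genes were. H1CKO against control called 38 lower and 1 higher, where 25.6% and 27% were. The median log2 fold change of the 77 was 0.09 in H1H2H2 and -0.29 in H1CKO, in opposite directions. Of 24 tested genes that build N-glycans in the endoplasmic reticulum, Alg3, Alg12, Dpagt1 and Gmppa were lower. H1H2H2 against control called 1 of the 24 lower and 4 higher, and H1CKO against control 17 lower and none higher. The median log2 fold change of the 24 was 0.15 in H1H2H2 and -0.49 in H1CKO, again in opposite directions. Txnip and Arrdc4, alpha-arrestins that limit glucose uptake, were lower, 2 of 5 tested. Txnip had 75.6, 45.6, 66.7 and 69.9 CPM in H1H2H2, 59.4, 41.3 and 54.3 CPM in H1CKO and 79.3, 83.8, 82.6 and 76.03 CPM in control, with 21.6% of its exon bases in another gene model. Arrdc4 had 25.6, 17.1, 18.7 and 17.3 CPM in H1H2H2, 16.8, 12.5 and 17.02 CPM in H1CKO and 35.8, 44.1, 31.05 and 35.8 CPM in control. In Txnip H1H2H2 8 came within a fraction of a CPM of control 4, while in Arrdc4 all mutants held well below the controls. These sets were picked after their values were seen.

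The H1CKO and H1H2H2 fold changes share the controls and are given side by side. In 119 higher and 116 lower genes the 2 mutant groups overlapped, 63.9% of the 368, where they overlapped in 35.6% of all tested genes at 5 CPM or more; the criterion bears on this share, and nothing is read from it. In 49 higher and 63 lower genes all H1H2H2 libraries lay between the controls and the H1CKO libraries, and in 11 and 10 genes all H1CKO libraries lay between the controls and the H1H2H2 libraries. By the criterion, any gene at 5 CPM or more with either order is among the 368. The fold change was farther from control in H1CKO than in H1H2H2 for 223 of the 368 genes (60.6%), and for 69.6% of all tested genes. For Islr the fold changes were log2 -1.64 in H1H2H2 and -1.62 in H1CKO, and for Id1 log2 0.46 in H1H2H2 and 0.42 in H1CKO. For Nefm they were log2 1.26 in H1H2H2 and 3.32 in H1CKO, and for Vegfa log2 0.16 in H1H2H2 and 1.17 in H1CKO. In the other direction, Apln had log2 1.17 in H1H2H2 and 0.78 in H1CKO, and Ptges log2 -1.39 in H1H2H2 and -0.86 in H1CKO.

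**Figure D4:**
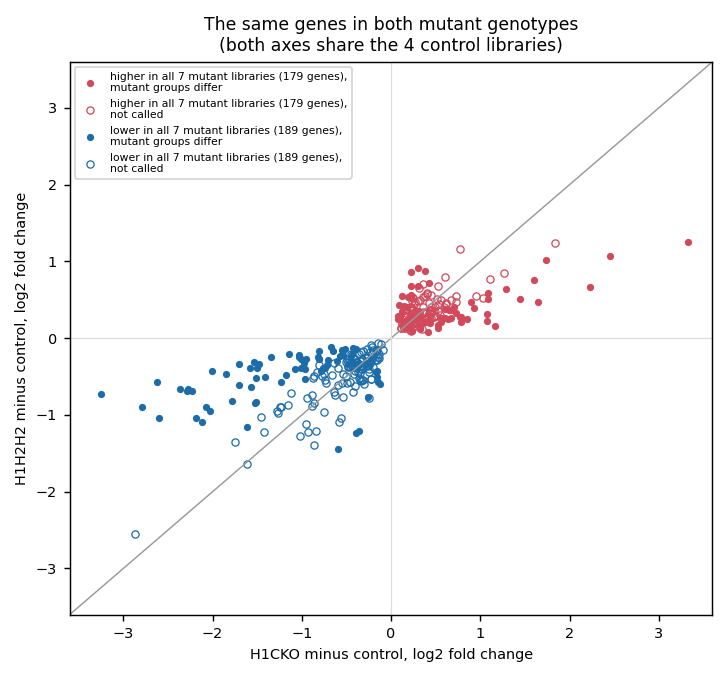
Log2 fold change over control of the 179 higher and 189 lower genes, in H1CKO (horizontal axis) and in H1H2H2 (vertical axis); filled points are the 129 genes in which the mutant groups differed by edgeR. Both axes share the 4 control libraries, and the criterion places all points in 2 quadrants. Most filled points lie nearer to the horizontal than to the vertical axis, with the larger fold change in H1CKO.

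The direct comparison asked where the mutant genotypes differed from each other. By edgeR, H1H2H2 differed from H1CKO in 129 of the 368 genes (35.1%), where 65% of all tested genes and 67.7% of those at 5 CPM or more were called. A gene that stayed at the control level in 1 genotype could not be counted, so a lower share follows in part from the criterion, and nothing is read from it. H1H2H2 was nearer to control in 103 of the 129 genes, 43 higher and 60 lower ones, and farther from control in 26, 17 higher and 9 lower ones. The nearer genes are 79.8% of those called among the 368, and 77.4% of those called among all tested genes had the smaller fold change over control in H1H2H2. With 1 library left out, the nearer genes numbered 83 to 104 and the farther ones 15 without H1CKO 7 to 52 without H1H2H2 8.

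The 5 lower genes with the smallest adjusted p had H1H2H2 levels between control and H1CKO. Fam46a, a non-canonical poly(A) polymerase, had 60.7, 55.7, 51.3 and 59.1 CPM in H1H2H2, 25.2, 24.1 and 23.2 CPM in H1CKO and 64.3, 77.6, 66.9 and 72.1 CPM in control (log2 difference 1.23, SE 0.0912, adjusted p = 9.05e-07). Abca1 differed by 1.11 (SE 0.104, adjusted p = 3.08e-06), Angptl6, an angiopoietin-like protein with 23.7, 16.3, 18.5 and 20.5 CPM in H1H2H2, 5.497, 6.03 and 7.79 CPM in H1CKO and 30.97, 34.3, 30.97 and 28.8 CPM in control, by 1.61 (SE 0.157, adjusted p = 3.97e-06), and Klf10 by 0.94 (SE 0.0936, adjusted p = 4.47e-06). Pik3cd, the leukocyte form of phosphoinositide 3-kinase, had 29.9995, 24.5, 31.2 and 29.5 CPM in H1H2H2, 15.1, 12.98 and 11.1 CPM in H1CKO and 36.9, 35.7, 36.6 and 36.99 CPM in control (log2 difference 1.14, SE 0.118, adjusted p = 5.82e-06). All 4 H1H2H2 libraries lay above all 3 H1CKO libraries in each of these genes.

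The 5 higher genes with the smallest adjusted p included 2 of the glycolysis and hypoxia group. Vegfa differed between H1H2H2 and H1CKO (log2 difference -1.01, SE 0.101, adjusted p = 4.74e-06), as did Pfkp (log2 difference -0.76, SE 0.0902, adjusted p = 1.55e-05). Ccni, an atypical cyclin, had 90.4, 104, 99.03 and 97.2 CPM in H1H2H2, 142, 149 and 152 CPM in H1CKO and 88.3, 83.3, 79.3 and 77.9 CPM in control (log2 difference -0.60, SE 0.0703, adjusted p = 1.49e-05); it has near-identical copies. Frat2 (log2 difference -1.56, SE 0.182) and Nefm (log2 difference -2.07, SE 0.251) completed them, and the 4 H1H2H2 libraries lay under the 3 H1CKO libraries in all 5. Frat2 and Nefm reached 5 CPM only through H1CKO, with means of 8.41 and 10.2 CPM there and 2.84 and 2.42 CPM in H1H2H2. The limit of 5 CPM thus bears on their difference, which is given as a description without a test. In the group as a whole, 22 of 33 genes were called lower and 1 higher in H1H2H2 than in H1CKO, where 33.3% and 31.8% of all genes were.

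The same test called Pdk1 (log2 difference -0.94, SE 0.123, adjusted p = 3.34e-05), Pfkfb3 (log2 difference -1.38, SE 0.258, adjusted p = 0.000495) and Bnip3 (log2 difference -0.64, SE 0.179, adjusted p = 0.00707) lower in H1H2H2. Ldha (log2 difference -0.18, 95% interval -0.48 to 0.13, adjusted p = 0.285), Pgk1 (log2 difference -0.42, 95% interval -0.86 to 0.01, adjusted p = 0.0824) and Tpi1 (log2 difference -0.20, 95% interval -0.45 to 0.04, adjusted p = 0.136) did not pass. Among matrix genes, Dcn (log2 difference 1.17, SE 0.219, adjusted p = 0.000522), Col6a3 (log2 difference 1.56, SE 0.276, adjusted p = 0.000333), Thbs2 (log2 difference 1.02, SE 0.2705, adjusted p = 0.00533) and the protease Adamts5 (log2 difference 0.96, SE 0.1596, adjusted p = 0.000205) were higher in H1H2H2 than in H1CKO, as was Plg (log2 difference 1.54, SE 0.243, adjusted p = 0.000142). Abca1, Plg and Tdo2 (log2 difference 2.52, SE 0.526, adjusted p = 0.00112) stand beside the visceral endoderm transcripts that were low in H1CKO, whose part in them was not tested.

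For 237 of the 368 genes (64.4%) the 95% interval of the difference between the mutant genotypes lay within 1.5-fold either way, against 26.9% of all tested genes; these were 139 of the 179 higher and 98 of the 189 lower genes, and 41 of them also passed the test. The criterion bears on this share as well. Id1 had such an interval (log2 difference 0.04, 95% interval -0.15 to 0.22, adjusted p = 0.735), and so did Abcc10 (log2 difference -0.11, 95% interval -0.38 to 0.16, adjusted p = 0.462) and Aurkb (log2 difference 0.04, 95% interval -0.13 to 0.20, adjusted p = 0.688). Islr (log2 difference -0.02, 95% interval -0.58 to 0.53, adjusted p = 0.941), Scn7a (log2 difference -0.00, 95% interval -0.51 to 0.50, adjusted p = 0.988) and Tmem26 (log2 difference 0.02, 95% interval -0.42 to 0.47, adjusted p = 0.921) were among them with wider intervals. For 43 genes neither the test passed nor the interval stayed within 1.5-fold, among them Hand1, Adamts18 (log2 difference 0.20, 95% interval -0.21 to 0.62, adjusted p = 0.368), Ptges (log2 difference -0.53, 95% interval -1.09 to 0.03, adjusted p = 0.0891) and Abcc6 (log2 difference -0.38, 95% interval -1.20 to 0.45, adjusted p = 0.398).

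**Figure D5:**
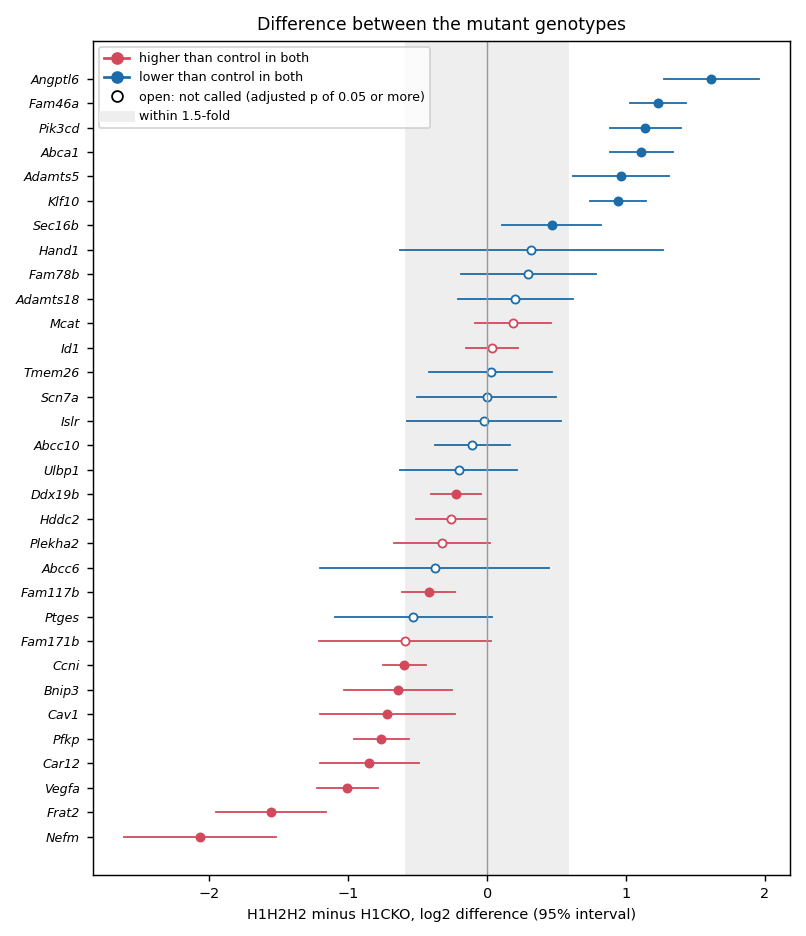
Log2 difference of H1H2H2 minus H1CKO (horizontal axis) with its 95% interval for 32 named genes; the grey band marks a difference within 1.5-fold either way. Angptl6, Fam46a, Pik3cd and Abca1 lie to the right, higher in H1H2H2, while the intervals of Id1 and Abcc10 lie inside the band. Nefm and Frat2, which reached 5 CPM only through H1CKO, lie to the left.

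Among autosomes and the X chromosome they made up 1.12% of the tested genes of chromosome 6 to 3.89% of those of chromosome 15, with 5 higher and 6 lower genes on the X chromosome. Within 5 Mb of Hand1, 7 of 127 other tested genes were counted (5.51%, against 2.51% of all tested genes; the difference was not tested): Zkscan17, Mprip and Alkbh5 were higher and Sept8, Tnip1, Tmem11 and Slc47a1 lower. Of the 368, 359 are protein coding, 13 have no gene name, 44 have a near-identical copy and 21 share over 20% of their exon bases with another gene. Other lists gave no gene: solute carriers, mesothelium, endothelium, arterial and venous genes, adhesion receptors, primitive erythroid and haematopoietic genes, Notch, hedgehog and guidance genes held none of the 368.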

How the data were processed

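Bulk RNA sequencing of 11 yolk sac libraries was used as deposited. Per the file headers, the values for each library are unnormalised read counts by gene, and the authors deposited log2 FPKM and log2 fold changes, signed fold changes (a score below 0 for lower genes) and p-values with FDR for their own comparisons. Per the submitters' processing notes, STAR 2.5.2b, featureCounts from Subread 1.5.1, edgeR and mm10 were used, with no role given. Only the counts were tested here.

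Counts were filtered with filterByExpr, scaled with TMM factors and fitted over all 11 libraries together by the quasi-likelihood method, with genotype as the only term (edgeR 4.0.16, R 4.3.3), with Benjamini-Hochberg adjustment over 14671 genes at 0.05. Unless said otherwise an adjusted p comes from this edgeR model. CPM are listed in the order H1H2H2 8 to 11, H1CKO 5 to 7 and control 1 to 4. The common biological coefficient of variation was 0.171. Total counts of 12019377 to 16824228 limit the precision at low CPM. The tests were checked on simulated data.

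The genes, the 31 gene lists and 13 families were chosen with earlier results of these data known. Named genes are Hand1 and Hand2, the 12 higher and 12 lower genes of widest gap between mutant and control libraries, up to 2 per list, the 5 per direction with the smallest adjusted p between the mutant genotypes, and 3 on either side of 5 CPM in each direction, without unnamed gene models, Y-linked genes and genes of X inactivation or its escape; the other members of a list that are given in full, and any gene said to be picked later, were added after their values were seen. A few genes within these rules are not reported here. Near-identical copies share at least 95% of bases over 300 bases and 30% of a transcript (BLAST 2.17.0 on GENCODE transcripts). Promoters come from RefSeq on GRCm38.p6, the assembly of mm10. Alternatives covered normalisation, filters, DESeq2 1.42.0, limma 3.58.1, a term for sex and libraries left out.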

Additional observations from a re-analysis of the deposited data

Results flagged for a closer look

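In groups of 4 libraries, 5 of 124 groups of named genes had a library farther from the rest than Dixon's limit, which chance exceeds in about 1 in 20 groups. H1H2H2 9 was high in 4 of them. Bnip3 stood at 152 CPM in H1H2H2 9, where the other H1H2H2 libraries held 82.8 to 90.5 CPM. Pdk1 stood at 118 CPM there, above 81.1 to 86.2 CPM in the rest of the group, Fam117b at 58.1 CPM above 47.4 to 49.2 CPM, and H2-D1 at 3.98 CPM above 2.48 to 2.68 CPM. Cyr61 stood at 52.9 CPM in H1H2H2 10, with 30.7 to 33.8 CPM in the other 3 libraries.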

How the results depend on the processing

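No paired analysis was possible because the groups share no replicate numbers. With 1 library left out, 155 to 342 genes met the criterion as higher and 196 to 613 as lower; of these 139 to 176 and 171 to 189 are among the 368; the highest counts were without H1H2H2 8, and the lower count was also 304, 299 and 284 without control 1, 2 or 3. Calls of the mean of both mutants against control ranged from 564 (without control 4) to 1676 higher and from 1242 to 2538 lower, and those of H1H2H2 against control from 694 (without H1H2H2 11) to 5055 (without H1H2H2 8). Among the 368, genes called between the mutant genotypes with H1H2H2 farther from control, the farther genes below, ranged from 15 to 52. With a term for sex, the mean called 473 genes higher, 1011 lower and 173 of the 368, and H1H2H2 against control 808. With controls 1 and 2 summed the last was 1134. With the 7 mutant libraries as 1 group, edgeR called 0 genes higher and 4 lower, all 4 among the 368 (Hand1, Islr, Adamts18 and Sec16b), while 351 of the 368 and 1619 of all genes had an unadjusted p under 0.05. With only the mutant groups fitted, the farther genes were 17. Without control 2 and H1CKO 5, the libraries with most placental transcripts of their groups, a setting added after the data were seen, 297 genes were lower, the mean called 751 higher, H1H2H2 against control called 1097, and the farther genes were 17. The cause of these shifts was not tested. The setting without control 2 and H1CKO 5 kept H1H2H2 9, the highest of its group in the placental markers Prl3d1 and Thbd. Other normalisations, filters and limits of 1 or 10 CPM gave 143 to 201 higher and 158 to 232 lower genes. Of these, 121 to 179 and 138 to 189 are among the 368 (fewest with total counts only). DESeq2 called 344 and limma-voom 329 of the 368. Between the mutant genotypes, 45 of 62 named genes kept their call in every setting. Sec16b, Atf3 and Ddx19b were among those that lost it. No sign reversed where a named gene was called in the main model or in the alternative. Sign changes of genes called in neither were not counted. The count of genes called between the mutant genotypes was 103 to 152 over all settings.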

Other observations

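Some members outside the lists, picked after their values were seen, belong to vessel and membrane biology. Angpt4, a ligand of the TIE2 receptor, had 5.51, 3.73, 3.898 and 3.92 CPM in H1H2H2, 1.099, 1.45 and 1.37 CPM in H1CKO and 6.68, 5.701, 8.56 and 6.09 CPM in control. Cd59a, which shields cells from complement, had 47.6, 37.1, 40.03 and 42.7 CPM in H1H2H2, 21.99, 21.9 and 19.01 CPM in H1CKO and 54.9, 59.8, 57.5 and 67.03 CPM in control, and Clec14a, a lectin of endothelium, had 51.03, 48.1, 51.99 and 51.995 CPM in H1H2H2, 32.1, 28.5 and 31.1 CPM in H1CKO and 56.97, 53.03, 75.2 and 60.5 CPM in control. In these genes all H1H2H2 libraries lay between control and H1CKO. Cd248, the pericyte protein endosialin, had 40.6, 11.4, 15.9 and 15.7 CPM in H1H2H2, 35.97, 37.7 and 38.2 CPM in H1CKO and 46.3, 54.7, 49.2 and 45.7 CPM in control; here the H1CKO libraries lay near the controls and H1H2H2 9 to 11 lowest (log2 difference -0.84, SE 0.321, adjusted p = 0.0357). Calr, the chaperone calreticulin, had 1372, 1165, 1028 and 1098 CPM in H1H2H2, 1058, 837 and 834 CPM in H1CKO and 1435, 1599.7, 1719 and 1536 CPM in control, and Cat, the catalase, 212, 219, 194 and 189.8 CPM in H1H2H2, 171, 149 and 163 CPM in H1CKO and 229.6, 223, 252 and 248 CPM in control.

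On the higher side, Enpp2, the enzyme that makes lysophosphatidic acid, had 4.7999, 4.85, 5.22 and 5.85 CPM in H1H2H2, 7.77, 8.09 and 6.18 CPM in H1CKO and 3.27, 3.64, 4.39 and 2.51 CPM in control. Yap1, the co-activator at the end of the Hippo pathway, had 164, 174, 168 and 184 CPM in H1H2H2, 159.9, 169.5 and 171 CPM in H1CKO and 144, 145, 158 and 142 CPM in control, with all mutant libraries within a narrow range (log2 difference 0.05, 95% interval -0.10 to 0.19, adjusted p = 0.551). Map2k1, the kinase MEK1, had 75.9, 137, 98.5 and 93.7 CPM in H1H2H2, 78.1, 67.3 and 75.03 CPM in H1CKO and 64.6, 62.03, 62.5 and 62.8 CPM in control, highest in H1H2H2 9.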
